A study of Homo sapiens with 9 samples.

Results

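Genes that are best known from natural killer (NK) cells and T cells were read in a B-cell line. Most of the 10 chosen for this description stood at another level once LSD1 was depleted. On the mean of both LSD1 shRNAs, 8226 of all 15725 genes tested changed at an adjusted p below 0.05. The 10 genes described here are KLRC1, KLRC2, KLRC3, KLRD1, KLRK1, PRF1, CD247, LCK, TCF7 and CD5. They were taken by symbol from a deposited table of read counts for 26816 genes, and all 10 were in the table and passed the filter on low counts that left 15725 genes to test. The genes were chosen by their read counts and changes in these same libraries, so their values are given as a description. Where the fit across all genes called 1 of them, the call is stated as part of that description and supports nothing.

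The cells were OCI-Ly1, an established line grown from a human lymphoma that resembles germinal-centre B cells (diffuse large B-cell lymphoma). The 9 libraries came from polyadenylated RNA of cells that carried an shRNA in the pLKO1 vector and had been selected with puromycin, which holds for the controls too. The 3 groups of 3 biological replicates were a non-targeting control shRNA (shSCR) and 2 shRNAs against LSD1, called sh68 and sh72 as in the column names of the table. The sample titles number the LSD1 shRNAs instead, and nothing ties a number to a name. All groups are 1 cell line, so the replicates measure the spread between cultures of it.

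NK cells and cytotoxic T cells read the surface of other cells through paired receptors. The KLR genes encode C-type lectin-like receptors of the NKG2 family. Most NKG2 proteins pair with CD94, the product of KLRD1, and bind the MHC molecule HLA-E, while NKG2D, the product of KLRK1, forms a pair with itself and binds stress-induced ligands. Receptors without a signalling tail of their own pass the signal through adaptors such as DAP12, DAP10 and the zeta chain encoded by CD247, on which the kinase LCK acts. Perforin, from PRF1, opens the target cell for granzymes. LSD1, encoded by KDM1A, removes methyl groups from histone H3 and is brought to genes by factors such as GFI1 in complexes with CoREST.

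The NKG2 genes are close copies of each other, which bears on every count given for them. All 5 KLR members lie within 215.7 kb of chromosome 12 (GRCh38.p14): KLRD1 at chr12:10238961-10329608 on the plus strand, and on the minus strand KLRK1 at chr12:10372353-10390041, KLRC3 at chr12:10412315-10420595, KLRC2 at chr12:10430599-10436010 and KLRC1 at chr12:10442264-10454685. Over their aligned coding sequences in GENCODE 29, KLRC2 and KLRC3 were identical at 96.5% of bases, KLRC1 and KLRC2 at 88.6%, and KLRC1 and KLRC3 at 86.9%. The stretch below shows how little separates them. It is the aligned, gap-free run of 90 coding bases nearest the middle of the KLRC2 coding sequence, 5′ to 3′, with the 6 positions at which the 3 genes differ in capitals. It starts at coding base 307 in KLRC1 and at base 301 in KLRC2 and KLRC3.

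KLRC1: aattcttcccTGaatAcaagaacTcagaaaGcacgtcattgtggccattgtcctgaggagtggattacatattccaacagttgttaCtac
KLRC2: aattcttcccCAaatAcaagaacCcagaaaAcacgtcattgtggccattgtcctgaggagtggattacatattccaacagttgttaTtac
KLRC3: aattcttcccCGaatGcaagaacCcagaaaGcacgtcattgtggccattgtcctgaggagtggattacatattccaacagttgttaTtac

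A short read that falls wholly between neighbouring capitals fits all 3 genes equally. Of the 50-base words in KLRC1 transcripts, 11.5% also occur in another gene. The share was 48.2% for KLRC2, 63.9% for KLRC3 and 60.9% for KLRK1, against 1.16% for KLRD1 and 0 for PRF1, CD247, LCK, TCF7 and CD5. Exons of KLRC1 and KLRC2 overlap on the same strand by 37 bases, which is 1.37% of KLRC1 exons and 2.47% of KLRC2 exons. KLRK1 shares 1900 exonic bases, 62.7% of its own, with the read-through gene KLRC4-KLRK1. Exons of KLRC2 and KLRC3 overlap a further GENCODE gene, AC068775.1, which is not a row of the table, over 338 and 652 bases (22.5% and 56.8% of their exons). The counts of the NKG2 genes are therefore uncertain as single values, and their sum is given beside them. On the opposite strand, TCF7 exons overlap SKP1 over 210 bases (2.09%), and KLRK1 exons the antisense gene AC022075.1 over 91 bases. The sources used here do not say whether the counting used strand.

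The sequences before the start sites of the genes differ widely in their content of CG pairs. RefSeq promoters on GRCh38.p14 were found for 6 of the 10 genes, and the 250 bases before the start used in the promoter table are described. For TCF7 that start lies inside the gene span given with its counts, downstream of the first base of the span, while the other 5 windows end at the first base of the gene. KLRC1 and KLRC3, which were higher with both shRNAs, and TCF7, which went opposite ways, are printed 5′ to 3′ in the direction of the gene with every CG pair in capitals. They lie at chr12:10454686-10454935 and chr12:10420596-10420845 (minus strand) and chr5:134115363-134115612 (plus strand).

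KLRC1: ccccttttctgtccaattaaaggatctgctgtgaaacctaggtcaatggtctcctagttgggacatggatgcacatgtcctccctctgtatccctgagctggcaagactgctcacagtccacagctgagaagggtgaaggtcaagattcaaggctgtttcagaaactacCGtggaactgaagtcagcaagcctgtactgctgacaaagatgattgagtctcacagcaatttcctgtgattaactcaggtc
KLRC3: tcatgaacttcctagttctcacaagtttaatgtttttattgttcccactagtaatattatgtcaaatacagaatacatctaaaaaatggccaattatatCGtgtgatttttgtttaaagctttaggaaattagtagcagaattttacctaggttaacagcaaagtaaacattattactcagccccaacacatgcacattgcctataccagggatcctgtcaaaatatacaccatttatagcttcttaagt
TCF7: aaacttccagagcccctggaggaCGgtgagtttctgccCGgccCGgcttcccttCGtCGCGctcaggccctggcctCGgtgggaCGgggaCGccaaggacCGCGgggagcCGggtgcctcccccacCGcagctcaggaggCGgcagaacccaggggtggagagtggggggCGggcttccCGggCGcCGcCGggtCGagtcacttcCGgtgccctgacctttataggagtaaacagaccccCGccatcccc

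The KLRC1 and KLRC3 windows hold 1 CG pair each and the TCF7 window 22. CD247 had 3, LCK 7 and PRF1 8, and the median over all 35116 promoters of the table was 11. Windows with 0 or 1 CG pair made up 14.7% of all promoters. G and C made up 48% of the KLRC1 window and 32% of the KLRC3 window, against 70.8% for TCF7 and a median of 58% over all promoters. Where they aligned, with gaps left out, the KLRC1 and KLRC3 windows were identical at 141 of 201 bases (70.1%). Unrelated promoters were not aligned in the same way, so no likeness is read from this value.

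Short motifs were searched on both strands of the 6 windows. The GFI1 core AAATCA was found in KLRC3 alone, 147 bases before the start, and occurs in 11.6% of all promoters. The TCF and LEF core CTTTGA was found in PRF1 and CD247 (11.2% of all promoters), the RUNX core TGTGGT in PRF1 and LCK (11%), and the ETS motif AGGAAG in KLRC3, PRF1, CD247 and LCK (28.7%). The STAT motif TTCNNNGAA (6.57%) and the T-box motif AGGTGTGA (0.786%) were in none of the 6. No 2 of these letter strings match at the same bases. These matches say only which letters are in these windows.

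The libraries held 29506767 to 35270849 counted reads, and libraries of a group had Pearson correlations of at least 0.9948 across genes. KDM1A, the target, was left at 20.2% of its control level with sh68 and 17.2% with sh72 (two-sided exact permutation test of 6 libraries against 3, p = 0.0119, the smallest this design allows). Of 12 B-cell genes such as PAX5 and POU2AF1, all were in the table and only CR2 stayed under 1 CPM, where CPM is the read count scaled to one common library size after TMM. Their summed level was 6840 to 7120 CPM in shSCR, 7200 to 7350 in sh68 and 4850 to 5130 in sh72. Of 12 genes that define T cells, 7 were in the table and all 7 (CD3D, CD3E, CD3G, CD2, CD28, CD8A and CD8B) stayed under 1 CPM in every library, while TRAC, TRBC1, TRBC2, TRAT1 and THEMIS had no row. Their sum was 0.159 to 0.623 CPM in shSCR, 0.541 to 1.16 in sh68 and 0.729 to 1.2 in sh72. Of 12 genes that define NK cells, the 6 in the table (NCR3, KLRF1, GNLY, NKG7, FCGR3A and NCAM1) also stayed under 1 CPM, with sums of 0.0928 to 0.415, 0.215 to 0.312 and 0.23 to 0.411 CPM. NCR1, GZMA, GZMK, KIR2DL1, KIR2DL4 and KIR3DL1 had no row. Of 10 monocyte markers, the 7 in the table stayed under 1 CPM, with sums of 0.51 to 0.68 CPM in shSCR, 1.39 to 1.6 in sh68 and 0.612 to 0.984 in sh72. Among them LYZ, which encodes lysozyme, had 0 reads in each control library, against 29, 31 and 21 for sh68 and 1, 2 and 1 for sh72. Of 7 stromal markers, 6 were in the table, with sums of 0.433 to 0.589, 1.5 to 1.85 and 1.31 to 3.51 CPM. Most of that sum was COL1A1, a collagen gene, which the controls held at 9, 13 and 11 reads, the sh68 libraries at 36, 49 and 46 and those of sh72 at 54, 84 and 36. The 5 erythroid markers in the table summed to at most 0.397 CPM. The stromal sum was thus higher in all 6 LSD1 shRNA libraries, as the 5 KLR members were. The monocyte sum was higher in all 3 sh68 libraries and the T cell sum in all 3 sh72 libraries. Of the T cell markers, CD3D and CD3G lay above every control in all 6 LSD1 shRNA libraries. CD3E, CD2, CD28, CD8A and CD8B overlapped the controls with both shRNAs. The part of these sums in the results was not tested. Of the KLR genes in sh68, KLRC3 stood at 61.7 to 67.1 CPM, KLRK1 at 2.14 to 2.75 and KLRD1 at 0.823 to 1.14. In bulk RNA, a change in the number of cells that express a gene and a change in RNA per cell cannot be told apart.

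**Figure D1:**
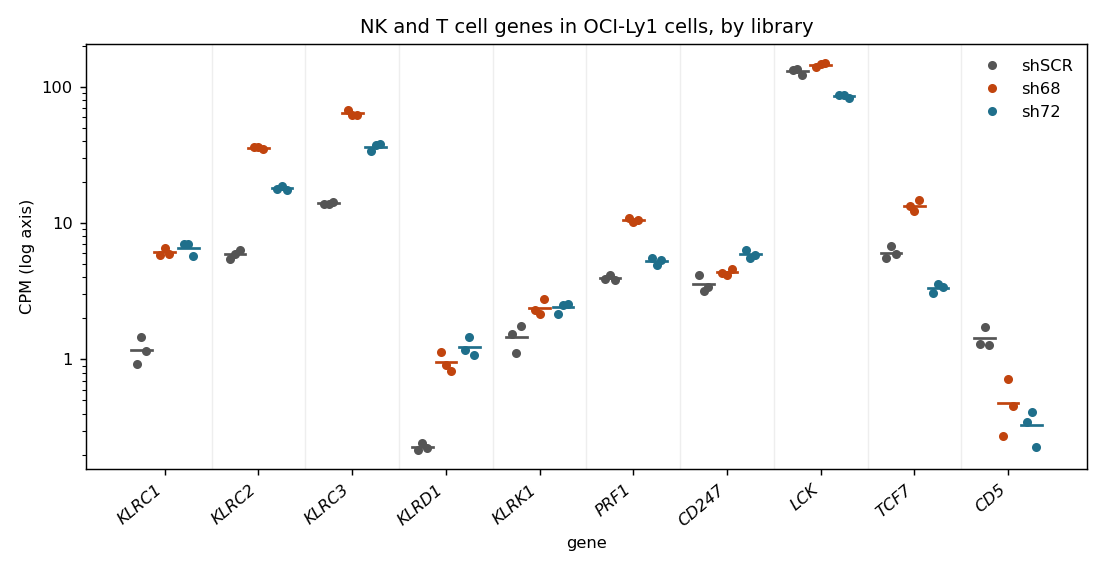
Level of the 10 genes in each library, in CPM on a log axis; points are the 3 libraries of shSCR, sh68 and sh72, and the short line is their mean. KLRC1, KLRC2, KLRC3, KLRD1, KLRK1 and PRF1 lie higher in all 6 LSD1 shRNA libraries than in shSCR, CD5 lies lower, and LCK and TCF7 lie on opposite sides of shSCR with sh68 and sh72.

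KLRC1 encodes NKG2A, the inhibitory receptor of the family. Its read counts were 30, 42 and 36 in shSCR, against 189, 231 and 208 for sh68 and 240, 224 and 176 for sh72. All 6 LSD1 shRNA libraries lay above all 3 controls, and the groups of the 2 shRNAs overlapped. The mean level was 1.18 ± 0.264 CPM (SD, n = 3) in shSCR, 6.10 ± 0.422 in sh68 and 6.62 ± 0.731 in sh72, which is 5.18 and 5.62 times the control level. The fitted log2 fold changes were 2.38 ± 0.15 (SE) with sh68 and 2.5 ± 0.15 with sh72.

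KLRD1 encodes CD94, the common partner of NKG2A, NKG2C and NKG2E, and was the least abundant of the 10 genes in control cells. It had 7 reads in each shSCR library, against 37, 32 and 29 for sh68 and 40, 46 and 33 for sh72. Every LSD1 shRNA library was again above every control, and sh68 and sh72 overlapped. The level went from 0.227 ± 0.0134 CPM to 0.957 ± 0.161 under sh68 and 1.23 ± 0.194 under sh72, or 4.21 and 5.43 times the control. The log2 fold changes were 2.05 ± 0.31 and 2.42 ± 0.30 (SE), the widest errors among the KLR genes.

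KLRC2 encodes NKG2C, the activating counterpart of NKG2A. Its read counts were 175, 172 and 199 in shSCR, against 1171, 1276 and 1227 for sh68 and 613, 594 and 534 for sh72. The 3 groups were fully apart, with sh72 between shSCR and sh68. The level was 5.90 ± 0.469, 35.7 ± 0.785 and 18.1 ± 0.643 CPM, so that sh68 stood at 6.05 times the control and sh72 at 3.06 times (log2 fold changes 2.60 ± 0.070 and 1.61 ± 0.075).

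KLRC3 encodes NKG2E and had the most reads of the KLR members. It was read 449, 398 and 445 times in shSCR, 2184, 2167 and 2200 times in sh68, and 1166, 1181 and 1155 times in sh72. Its groups were in the same order as those of KLRC2 and did not overlap. The level was 13.95 ± 0.212, 63.8 ± 2.89 and 36.4 ± 2.10 CPM, with log2 fold changes of 2.19 ± 0.058 and 1.38 ± 0.061.

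KLRK1 encodes NKG2D. It had 50, 32 and 55 reads in shSCR, against 75, 75 and 97 for sh68 and 74, 79 and 78 for sh72. All 6 LSD1 shRNA libraries lay above the controls and the 2 shRNAs overlapped. The level was 1.47 ± 0.330 CPM in shSCR and 2.40 ± 0.319 and 2.40 ± 0.215 CPM in sh68 and sh72. The log2 fold change was 0.70 ± 0.18 with either shRNA. The read-through gene KLRC4-KLRK1, with which it shares most of its exons, had 51 to 55 reads in shSCR, 127 to 140 in sh68 and 107 to 130 in sh72.

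KLRC4, the remaining NKG2 gene of the cluster, was not among the 10 and lies between KLRK1 and KLRC3. It rose with both shRNAs, from 9.41 ± 0.274 CPM to 36.3 ± 2.27 under sh68 and 18.7 ± 1.55 under sh72 (log2 fold change on the mean of both shRNAs 1.47 ± 0.067, edgeR adjusted p = 9.82e-15). Like KLRC2 and KLRC3 it was lower with sh72 than with sh68 (-0.95 ± 0.065, adjusted p = 1.11e-11). It shares 47.9% of its 50-base words with the read-through KLRC4-KLRK1, 7.38% with KLRC2 and 7.26% with KLRC3.

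Within the summed reads of KLRC1 to KLRC4, the shares of the genes were not constant. KLRC1 took 3.86 ± 0.802% in shSCR, 4.31 ± 0.41% in sh68 and 8.31 ± 1.08% in sh72. KLRC2 took 19.4 ± 1.19%, 25.2 ± 0.938% and 22.6 ± 0.983%, and KLRC4 30.9 ± 1.18%, 25.6 ± 0.985% and 23.5 ± 1.07%. The share of KLRC3 differed between groups by less than its spread in shSCR, at 45.8 ± 1.07%, 44.9 ± 0.559% and 45.6 ± 1.01%. With the counts of KLRC1, KLRC2 and KLRC3 added to 1 feature, the log2 fold change was 2.34 with sh68 and 1.55 with sh72, and the difference of sh72 minus sh68 was -0.788. That of KLRC1 counted alone was 0.119 ± 0.11, so the pooled value has the opposite sign. KLRC2 and KLRC3 hold most of the pooled reads, so the pooled value is no second estimate for KLRC1. With KLRC4 and KLRK1 added as well, the values were 2.19, 1.38 and -0.81.

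PRF1 encodes perforin, the pore-forming protein of cytotoxic granules, and lies at chr10:70597348-70602741 on the minus strand. Its read counts were 126, 121 and 119 in shSCR, against 357, 355 and 372 for sh68 and 190, 157 and 164 for sh72. The groups did not overlap, and sh72 lay between the control and sh68. The level was 3.96 ± 0.205, 10.5 ± 0.425 and 5.29 ± 0.300 CPM, with log2 fold changes of 1.41 ± 0.096 and 0.42 ± 0.11.

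CD247 encodes the zeta chain of the T cell receptor complex, which NK receptors use as well, and lies at chr1:167430640-167518529 on the minus strand. It had 135, 91 and 107 reads in shSCR, against 141, 146 and 161 for sh68 and 219, 174 and 178 for sh72. The sh68 libraries overlapped shSCR, while all 3 sh72 libraries lay above both other groups. The level was 3.58 ± 0.532, 4.35 ± 0.207 and 5.91 ± 0.449 CPM. The log2 fold change was 0.72 ± 0.12 with sh72 and 0.28 ± 0.12 with sh68, where the adjusted p of the fit did not reach the threshold of 0.05. Without the first shSCR replicate the value with sh68 was 0.415 and passed it, and with the replicate number as a block it was 0.285 and passed (edgeR adjusted p = 0.0434).

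LCK encodes the Src-family kinase that starts T cell receptor signalling, and lies at chr1:32251265-32286165 on the plus strand. It was the most abundant of the 10 genes, with 4276, 3896 and 3833 reads in shSCR, against 4563, 5175 and 5227 for sh68 and 2973, 2730 and 2526 for sh72. All sh68 libraries lay above the controls in CPM and all sh72 libraries below. The level was 129.8 ± 6.68 CPM in shSCR, 145.3 ± 4.53 in sh68 and 85.3 ± 2.10 in sh72. The log2 fold changes were 0.16 ± 0.042 and -0.61 ± 0.043.

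TCF7 encodes TCF1, a transcription factor of T cell development that binds beta-catenin, and lies at chr5:134108218-134148210 on the plus strand. It had 179, 195 and 185 reads in shSCR, against 432, 428 and 516 for sh68 and 106, 113 and 104 for sh72. As with LCK, sh68 was above the control in every library and sh72 below it in every library. The level was 6.06 ± 0.624, 13.4 ± 1.23 and 3.36 ± 0.244 CPM, or 2.21 times and 0.554 times the control. The log2 fold changes were 1.14 ± 0.096 and -0.85 ± 0.12, which nearly cancel on the mean of both shRNAs (0.15 ± 0.094).

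CD5 encodes a surface receptor of T cells and of a subset of B cells that dampens antigen receptor signals, and lies at chr11:61093963-61127852 on the plus strand. Its read counts were 42, 50 and 40 in shSCR, against 9, 25 and 16 for sh68 and 12, 13 and 7 for sh72. It was the only one of the 10 genes that lay below the controls in all 6 LSD1 shRNA libraries, and the 2 shRNAs overlapped. The level was 1.44 ± 0.257 CPM in shSCR, 0.481 ± 0.219 in sh68 and 0.330 ± 0.0921 in sh72, with log2 fold changes of -1.55 ± 0.28 and -2.09 ± 0.31.

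**Figure D2:**
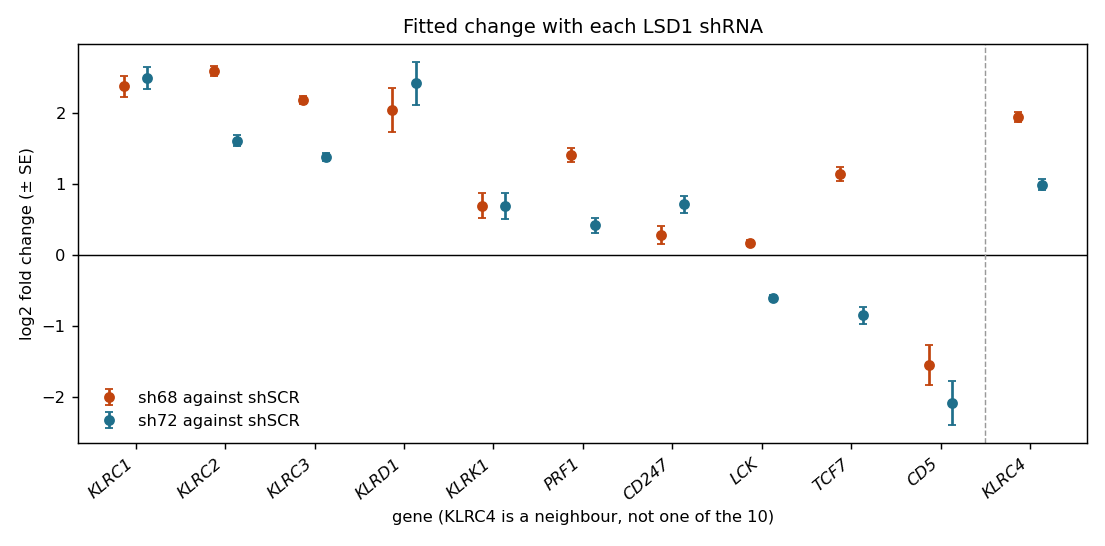
Fitted log2 fold change against shSCR with sh68 and with sh72 for the 10 genes and their neighbour KLRC4; bars are the SE of the fit. The KLRC genes and KLRD1 lie between 0.99 and 2.60, LCK and TCF7 lie above 0 with sh68 and below 0 with sh72, and CD5 lies below 0 with both.

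On the mean of both shRNAs, 7 of the 10 genes were higher at an adjusted p below 0.05, 2 were lower (LCK and CD5) and TCF7 did not pass, where 24.9% of all genes tested were higher and 27.5% lower. With sh68, 8 were higher, CD5 was lower and CD247 did not pass (27.4% and 28.1% of all genes). With sh72, 7 were higher and LCK, TCF7 and CD5 were lower (24.7% and 26.3% of all genes). Since values of these same contrasts chose the genes, nothing is read from the counts. The median log2 fold change of the 10 was 1.28 with sh68 and 0.708 with sh72, against -0.00823 and -0.0114 over all genes tested.

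Several of the 10 genes stood at different levels with the 2 shRNAs. In the contrast of sh72 minus sh68, 1 of the 10 was higher with sh72 (CD247, 0.44 ± 0.11), 5 were lower and 4 did not pass, where 27.2% of all genes were higher and 29% lower. These calls too are on genes chosen by their values, and nothing is read from them. The 5 lower ones were TCF7 (-2.0 ± 0.10), PRF1 (-0.99 ± 0.090), KLRC2 (-0.98 ± 0.059), KLRC3 (-0.81 ± 0.052) and LCK (-0.77 ± 0.043). KLRC1 (0.12 ± 0.11), KLRD1 (0.37 ± 0.22), KLRK1 (-0.00 ± 0.16) and CD5 (-0.54 ± 0.37) did not pass, and the last has an error that leaves a sizeable difference possible. KDM1A itself had -0.23 ± 0.061 in this contrast. The B-cell gene sum, lower in sh72 than in either other group, moved with these differences, and its part in them was not tested.

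Levels of different genes can be compared only per length of transcript. Per kilobase of the median coding transcript in GENCODE 29, control cells held 61.0 ± 3.14 RPKM (CPM per kilobase) of LCK and 15.3 ± 0.233 of KLRC3. Then came KLRC2 at 5.64 ± 0.448, CD247 at 2.18 ± 0.324, TCF7 at 2.11 ± 0.217, PRF1 at 1.59 ± 0.0823, KLRK1 at 1.17 ± 0.263, KLRC1 at 0.836 ± 0.188, CD5 at 0.446 ± 0.0797 and KLRD1 at 0.0718 ± 0.00425 RPKM. The neighbours CD247 and TCF7 in this order did not differ beyond their spread, and neither did KLRK1 and KLRC1. With sh68 KLRC3 (69.8 ± 3.17 RPKM) reached the level of LCK (68.3 ± 2.13), and with sh72 the pair stood at 39.9 ± 2.30 and 40.1 ± 0.986. Of the 50-base words of KLRC3, 63.9% also occur in another gene, against 0 for LCK. The KLRC3 values are therefore uncertain by more than the spread given. KLRC1 moved from below TCF7, PRF1 and CD247 to 4.70 ± 0.519 RPKM in sh72, above all 3 (1.17 ± 0.0849, 2.12 ± 0.120 and 3.59 ± 0.273). In sh68 it stood at 4.33 ± 0.3 RPKM, which did not differ beyond the spread from TCF7 (4.66 ± 0.429) or PRF1 (4.23 ± 0.17). KLRD1 stayed under 1 RPKM in every group, at 0.302 ± 0.0509 in sh68 and 0.390 ± 0.0614 in sh72, and so was far less abundant than the NKG2 genes whose products pair with CD94.

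How alike the genes behaved across the 9 libraries is described here by Pearson r of log2 CPM. These points share the same 3 groups, so r mainly records how the group means are ordered. KLRC2 and KLRC3 had an r of 0.997, KLRC1 and KLRD1 0.979, and LCK and TCF7 0.906. PRF1 had 0.924 with KLRC2 and 0.921 with KLRC3, and KLRC1 had 0.904 and 0.9 with the same 2 genes. CD5 ran against the KLR members, from -0.761 with KLRC2 to -0.914 with KLRD1. Among genes with an average log2 CPM of at least 1, the 3 most like KLRC1 were CHAMP1 (0.9953), AVEN (0.9905) and ARHGEF6 (0.9899). For KLRC2 they were KLRC3 (0.9972), LOC105373911 (0.9942) and MEX3C (0.9937), and for KLRC3 PART1 (0.9974), KLRC2 and P2RY14 (0.995). AVEN (0.99) led for KLRD1 as well, before KCNN4 (0.9876) and DYNLRB1 (0.9866). KLRK1 was followed at lower r by LOC100287497 (0.969), LOC107986303 (0.9661) and ASTE1 (0.9638). PRF1 had TIFA (0.9987), SLC35E3 (0.9981) and CD96, a receptor of NK and T cells (0.9977). CD247 had LOC101929054 (0.9755), FHIT (0.9751) and CLPB (0.9749). For LCK the genes were GNB4 (0.9934), the B-cell transcription factor POU2F2 (0.9932) and RPIA (0.9932), and for TCF7 HERC2 (0.9973), APAF1 (0.9953) and NECTIN1 (0.9949). CD5 had the ribosomal protein gene RPL11 (0.9834), the translation factor gene EEF1B2 (0.9832) and NRF1 (0.9809).

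The KLR genes belong to the natural killer gene complex, a run of lectin-like receptor genes on chromosome 12, and other tested genes of the region were read with them. Within 1 Mb of the interval from KLRD1 to KLRC1, 43 other genes of the table were found and 20 were tested. On the mean of both shRNAs 13 rose, 4 fell and 3 did not pass, with a median log2 fold change of 0.432 against -0.0152 over all genes. Of all genes tested, 24.9% were higher and 27.5% lower on this mean. CLEC2B, with 4, 11 and 3 reads in shSCR, would not have passed the filter on low counts there. It was tested because of its reads in the LSD1 shRNA libraries. Such a gene can be called higher but hardly lower, so the count of rises is partly set by the filter. With sh68 12 rose and 3 fell (27.4% and 28.1% of all genes). With sh72 10 rose, 2 fell and 8 did not pass (24.7% and 26.3% of all genes were higher and lower). KLRC4 and the read-through KLRC4-KLRK1 (1.12 ± 0.13), whose sequence is partly that of the KLR members, were among those that rose. Those that changed most were CLEC7A, the receptor Dectin-1 (2.91 ± 0.51, adjusted p = 4.03e-05), CD69, an early activation antigen (2.12 ± 0.22), and CLEC2B, the ligand of the NK receptor NKp80 (1.48 ± 0.38). CLEC7A and CLEC2B stayed at 1.30 ± 0.431 CPM or less in every group, and without the second shSCR replicate the value of CLEC2B was 2.29. STYK1, a kinase-like membrane protein, rose by 0.70 ± 0.11 and GABARAPL1, an autophagy protein of the ATG8 family, by 0.67 ± 0.036, the latter from 80.7 ± 1.8 CPM to 152.4 ± 5.23 under sh68 and 107.7 ± 2.44 under sh72.

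**Figure D3:**
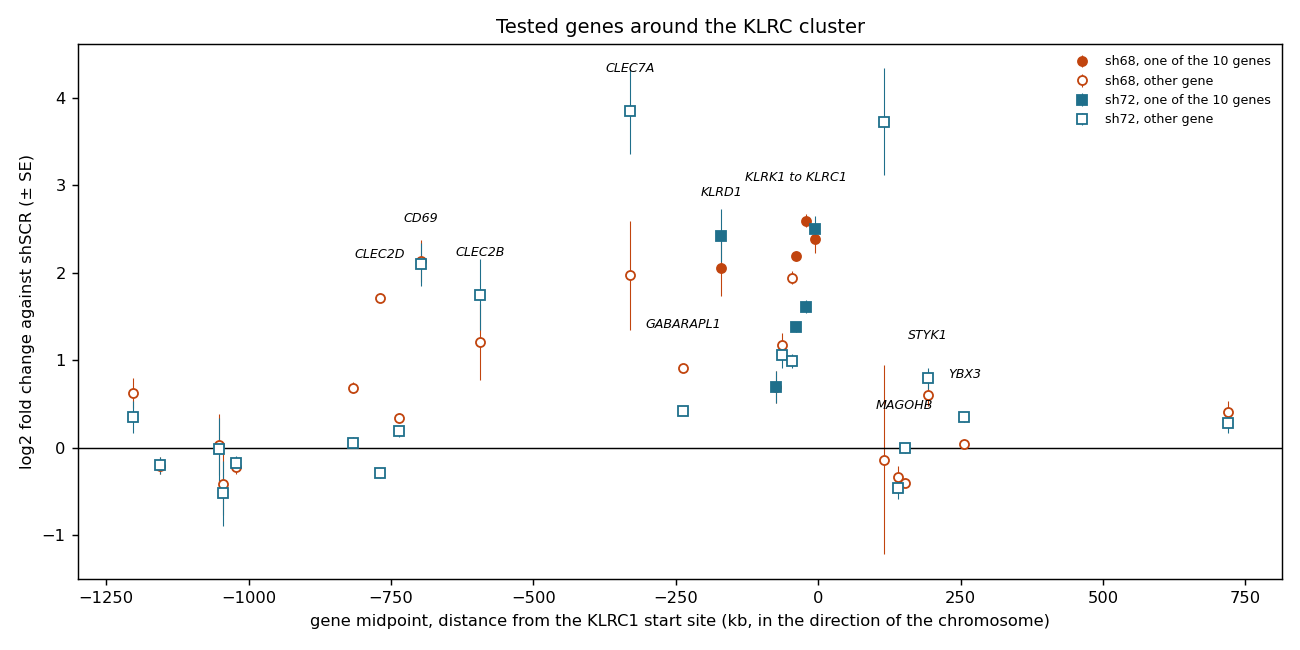
Tested genes around the KLRC cluster on chromosome 12, with log2 fold change against shSCR (± SE) plotted by the distance of the gene's midpoint from the KLRC1 start site in kb; filled symbols are 5 of the 10 genes and open symbols other genes. These 5 genes, KLRC4 and KLRC4-KLRK1 lie above 0 with both shRNAs and the pseudogene KLRA1P lies below 0. CLEC2D lies at 1.72 with sh68 and -0.28 with sh72.

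Some genes of the 1 Mb flanks fell. The pseudogene KLRA1P (-0.39 ± 0.11), with its midpoint 139.5 kb from the KLRC1 start site, fell with both shRNAs. MAGOHB, an exon junction protein (-0.20 ± 0.044), fell with sh68 (-0.40 ± 0.052) and had -0.00 ± 0.051 with sh72. KLRB1 and KLRF1, NK receptors of the same complex, had at most 8 and 1 reads in any library and were not tested. The non-coding LOC105376675 had 1.8 ± 0.87 on the mean and did not pass (edgeR adjusted p = 0.0867). It passed with limma-voom (1.73, adjusted p = 0.0171) and without the third sh68 replicate (2.08), and leaving out single libraries gave 1.26 to 2.7, the latter without the second shSCR replicate. CLEC2D, the ligand of KLRB1, went opposite ways, from 30.7 ± 0.174 CPM in shSCR to 101.03 ± 5.41 under sh68 and 25.2 ± 1.03 under sh72.

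Other NK and T cell genes were read from 6 lists of 147 genes that leave out the 10. The lists too were chosen with earlier results of these data known, so their counts are a description. They hold KLRC4, whose sequence is close to that of KLRC1, KLRC2 and KLRC3. Of these, 118 were in the table and 78 were tested. On the mean of both shRNAs 37 rose, 19 fell and 22 did not pass, with a median log2 fold change of 0.197 against -0.0152 over all genes. Over all genes tested, 24.9% were higher and 27.5% lower. Among the genes named below, CD226, SLAMF7, RAET1E, CLEC2B and CD3D had too few reads in shSCR to pass the filter on low counts there. They were tested because of their reads in the LSD1 shRNA libraries. Such genes can be called higher but hardly lower, so the counts of rises are partly set by the filter. With sh68 33 rose and 12 fell (27.4% and 28.1% of all genes), and with sh72 30 rose and 27 fell (24.7% and 26.3%). In sh72 minus sh68, 16 were higher and 33 lower, where 27.2% of all genes were higher and 29% lower. A value on the mean can hide that the shRNAs differ, so both are given where 1 of them did not pass or had the other sign. With the 6 LSD1 shRNA libraries taken as 1 group, 17 of these genes were higher and 7 lower. In that fit the calls of SLAMF6, SLAMF7, RAET1E, CLEC2D, LYST, STX11, TNFSF10, CD3D, CBLB, PTPN22, ZEB2, TOX2, ETS1, BACH2, IL12RB2, CCR7 and IL2RA on the mean were lost (edgeR adjusted p from 0.0543 for PTPN22 to 0.699 for CCR7).

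Among receptors and adaptors of NK cells, 9 of 12 tested genes rose and 3 did not pass on the mean (median 0.737). Of those that rose, CD226 and SLAMF7 would not have been tested on the shSCR libraries alone. All genes tested were higher in 24.9% and lower in 27.5% of cases on this mean. With sh68 7 rose and 5 did not pass (27.4% of all genes were higher and 28.1% lower). With sh72 7 rose and 2 fell (24.7% and 26.3% of all genes), SLAMF6 among the latter (0.95 with sh68 and -0.23 with sh72). A further 7 of 19 genes in the table were too rarely read to test. CD226, the activating receptor DNAM-1, rose from 0.171 ± 0.0591 CPM to 0.997 ± 0.195 under sh68 and 0.745 ± 0.153 under sh72 (2.30 ± 0.33, adjusted p = 2.80e-06). The receptors TIGIT and CD96 share ligands with it. TIGIT rose by 1.03 ± 0.24 and CD96 by 1.39 ± 0.047, the latter from 34.05 ± 0.917 CPM to 150.7 ± 8.67 under sh68 and 53.1 ± 2.98 under sh72. CRTAM, a further adhesion receptor of cytotoxic cells, rose by 0.86 ± 0.063. SLAMF7 rose by 1.27 ± 0.40 (adjusted p = 0.0101), but did not pass without the first shSCR replicate (0.803) or the third (0.969), and stood at 2.58 without the second. With sh68 alone it had 0.99 ± 0.46 and did not pass. HCST, which encodes DAP10, the adaptor of NKG2D, rose with sh68 (0.71 ± 0.11) and not with sh72 (0.02 ± 0.12, adjusted p = 0.899). TYROBP, which encodes DAP12, the adaptor of NKG2C, had -0.31 ± 0.29 and 0.603 ± 0.0679 CPM in shSCR, and did not pass.

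Among ligands of NK receptors, 3 of 8 tested genes rose, 1 fell and 4 did not pass on the mean (median 0.283). The shares over all genes were 24.9% higher and 27.5% lower. With sh68 3 rose and 1 fell (27.4% and 28.1% of all genes), and with sh72 3 rose and 3 fell (24.7% and 26.3%). On the mean, the genes that rose are named next. CLEC2B and CLEC2D, already named, were 2 of the 3, and RAET1E, an NKG2D ligand, was the third at 1.12 ± 0.36 (adjusted p = 0.0109). Neither CLEC2B nor RAET1E would have been tested on the shSCR libraries alone. RAET1E did not pass with sh68 alone (0.51 ± 0.43) or on the mean without the third shSCR replicate (0.82). NCR3LG1, the ligand of NKp30, fell by 0.19 ± 0.030 on the log2 scale. The NKG2D ligands ULBP1, ULBP2 and ULBP3 did not pass on the mean. ULBP2 passed with sh68 (0.59 ± 0.23, edgeR adjusted p = 0.0322) and not with sh72 (0.30 ± 0.24). ULBP3 passed with sh72 (0.38 ± 0.12, adjusted p = 0.011) and not with sh68 (-0.14 ± 0.13), and ULBP1 passed with neither. HLA-E, the ligand of the CD94 and NKG2 receptors, had 1 read over all 9 libraries and MICA 3 to 8 reads in each, and neither was tested. The sources used here do not say how reads from the MHC region were counted.

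**Figure D4:**
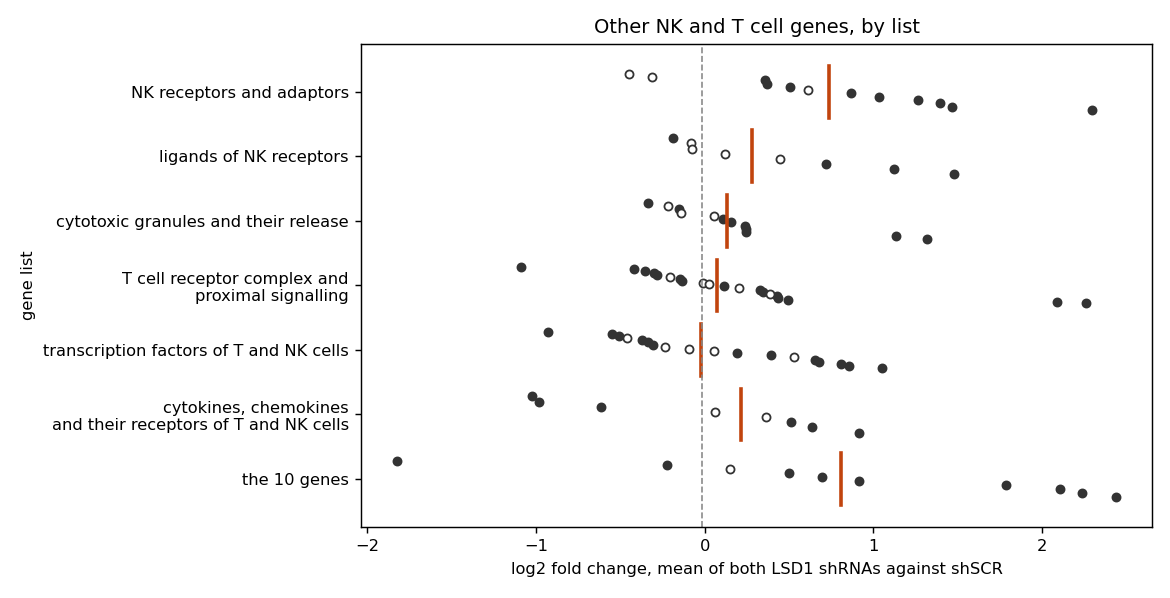
Log2 fold change on the mean of both LSD1 shRNAs for the tested genes of each list and for the 10 genes; filled points passed at an adjusted p below 0.05, open points did not, the orange line is the list's median and the dashed line the median of all genes tested (-0.0152). The list of NK receptors and adaptors has a median of 0.737, and the list of transcription factors -0.0207.

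Of the genes for cytotoxic granules and their release, 7 of 12 tested rose, 2 fell and 3 did not pass on the mean (median 0.131). The shares over all genes were 24.9% higher and 27.5% lower. With sh68 only 3 rose, 1 fell and 8 did not pass (27.4% of all genes were higher and 28.1% lower). With sh72 6 rose and 2 fell (24.7% and 26.3% of all genes). SRGN, the proteoglycan serglycin that packs granule proteins, rose from 5.72 ± 0.569 CPM to 10.03 ± 0.452 under sh68 and 20.1 ± 0.230 under sh72 (1.32 ± 0.075). The granzyme gene GZMM rose by 1.13 ± 0.25 from 0.680 ± 0.322 CPM. The other rises named were small, 0.24 ± 0.042 for RAB27A and 0.24 ± 0.082 for STX11, which both serve granule release, and 0.24 ± 0.098 for the death ligand TNFSF10. STX11 passed with sh72 (0.39 ± 0.092) and not with sh68 (0.10 ± 0.094), and TNFSF10 with neither alone (adjusted p = 0.111 and 0.0542). On the mean, STX11 did not pass without the second (0.233) or the third (0.207) shSCR replicate, and TNFSF10 without the first (0.284) or the third (0.167) shSCR, the third sh68 (0.194) or the second sh72 replicate (0.224). LYST, a lysosome trafficking regulator, fell with sh72 (-0.74 ± 0.062) and not with sh68 (0.06 ± 0.058). GZMA, GZMB, GZMH and GZMK had no row, and GNLY, which encodes the granule protein granulysin, had 1 read in all.

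The T cell receptor list was split on the mean, with 8 of 20 tested genes higher, 7 lower and 5 not passing (median 0.0697). Of all genes, 24.9% were higher and 27.5% lower. With sh68 6 rose and 3 fell (27.4% and 28.1% of all genes), and with sh72 6 rose and 7 fell (24.7% and 26.3%). SH2D2A, an adaptor that binds LCK, rose from 0.389 ± 0.0228 CPM to 1.28 ± 0.0955 under sh68 and 2.77 ± 0.371 under sh72 (2.26 ± 0.22, adjusted p = 5.13e-09). CD6, a receptor related to CD5 and its neighbour on chromosome 11, fell by 1.09 ± 0.094, from 6.98 ± 0.533 CPM to 2.63 ± 0.0206 under sh68 and 4.08 ± 0.274 under sh72. The phosphatase PTPN22 rose by 0.44 ± 0.037. The ubiquitin ligase CBLB rose with sh68 (0.91 ± 0.036) and did not pass with sh72 (0.08 ± 0.036, adjusted p = 0.0876). CD3D rose by 2.09 ± 0.66 (adjusted p = 0.0103) on 1 to 14 reads a library, and did not pass with sh68 alone (adjusted p = 0.051), nor on the mean without the third shSCR replicate (1.84) or the third sh68 replicate (1.66). It would not have been tested on the shSCR libraries alone. ZAP70, the kinase that binds the zeta chain, had 0.03 ± 0.29 and 0.518 ± 0.161 CPM in shSCR, and LAT and FYN did not pass either.

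Of 18 tested transcription factors of T and NK cells, 7 rose, 6 fell and 5 did not pass on the mean (median -0.0207). The shares over all genes were 24.9% higher and 27.5% lower. The 2 shRNAs gave different counts, 10 higher and 5 lower with sh68 (27.4% and 28.1% of all genes). With sh72, 4 were higher and 10 lower (24.7% and 26.3% of all genes). In sh72 minus sh68, 3 of the 18 were higher and 12 lower (27.2% and 29% of all genes). LEF1, the closest relative of TCF7 on the list, rose with both, from 174.6 ± 4.41 CPM to 326.7 ± 7.51 and 237.9 ± 10.6 (0.68 ± 0.035). ZEB2 rose by 1.05 ± 0.040, with 1.87 for sh68 and 0.23 for sh72. ID3 rose by 0.86 ± 0.062 while ID2, an inhibitor of the same E proteins needed by NK cells, fell by 0.93 ± 0.041, from 84.4 ± 4.70 CPM to 40.4 ± 1.38 and 48.4 ± 1.28. TOX2 rose with sh68 (1.37 ± 0.19) and did not pass with sh72 (0.24 ± 0.22). IKZF2, which encodes Helios, rose by 0.65 ± 0.034. TBX21, EOMES and BCL11B, which direct NK and T cell fates, had at most 2, 11 and 2 reads in any library and were not tested.

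Of 8 tested cytokine and chemokine genes and their receptors, 3 rose, 3 fell and 2 did not pass on the mean (median 0.214). The shares over all genes were 24.9% higher and 27.5% lower. With sh68 4 rose and 2 fell (27.4% and 28.1% of all genes), and with sh72 4 rose and 3 fell (24.7% and 26.3%). The receptor chains IL12RB1 (0.91 ± 0.074), IL21R (0.63 ± 0.046) and IL2RA (0.51 ± 0.045) rose. IL15RA (-1.02 ± 0.18) fell. IL12RB2 (-0.98 ± 0.26) fell with sh72 (-1.41 ± 0.32) and did not pass with sh68 (-0.55 ± 0.28, adjusted p = 0.1). The chemokine receptor CCR7, at -0.62 ± 0.092 on the mean, rose with sh68 (0.34 ± 0.098) and fell with sh72 (-1.57 ± 0.12). The 2 chains of the IL-12 receptor thus moved in opposite directions on the mean, IL12RB1 from 11.01 ± 0.792 CPM to 20.7 ± 1.74 and 20.9 ± 2.11, and IL12RB2 from 0.974 ± 0.0585 to 0.667 ± 0.220 and 0.360 ± 0.155.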

How the data were processed

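The deposited values are raw counts: reads that the authors assigned to each gene symbol in each library. Tools named in the submitters' processing notes are featureCounts 1.5.2, STAR 2.5.2 and CASAVA 1.8.2, with hg38 as the build. Annotation, strandedness and settings: not given in the sources used here.

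Counts were fitted with edgeR 4.0.16 in R 4.3.3 (filterByExpr, TMM, quasi-likelihood test, a term per group, all 9 libraries), and p-values were adjusted over the 15725 genes tested by the Benjamini-Hochberg method. The common biological coefficient of variation was 0.0394. Alternatives included DESeq2 1.42.0 and limma-voom (limma 3.58.1). The pipeline was tested on simulated data.

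The 10 genes and the gene lists were chosen with earlier results of these data known. Named were all 10, up to 6 passing genes a list with the largest change on the mean (1 of them is not reported here), listed genes passing with opposite signs, the 3 genes most like each of them, and genes within 1 Mb of the KLR interval that changed by at least 0.5 or lie within it. Other genes named, such as HCST, TYROBP, ZAP70, KLRA1P and MAGOHB, were picked after their values were seen.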

Additional observations from a re-analysis of the deposited data

Results flagged for a closer look

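Of the listed genes, 7 passed against shSCR with opposite signs with the 2 LSD1 shRNAs in edgeR. They were picked for that pattern, which fixes a difference between the shRNAs, so sh72 minus sh68 (log2 ± SE) is given as a description. CLEC2D had 1.72 with sh68 and -0.28 with sh72, a difference of -2.0 ± 0.051. CCR7, which guides lymphocytes to lymph nodes, had 0.34 and -1.57 (-1.91 ± 0.11). The transcription factor ZBTB16 had 1.95 and -0.89 (-2.84 ± 0.25) at 2.47 ± 0.394 CPM or less. BACH2, a repressor of lymphocyte differentiation, had 0.22 and -0.97 (-1.19 ± 0.036). SLAMF6, a receptor shared by B, T and NK cells, had 0.95 and -0.23 (-1.18 ± 0.038), and ETS1 0.50 and -0.12 (-0.615 ± 0.041). IL2RG, the common gamma chain, ran the other way, at -0.24 and 0.37 (0.611 ± 0.042). With sh72 alone, ETS1 did not pass without the first (-0.0993) or second (-0.0956) shSCR or the second (-0.0742) or the third (-0.0716) sh72 replicate, and ZBTB16 did not without the third shSCR replicate (-0.595) or the first (-0.778) or second (-0.817) sh72 replicate.

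Every sh68 library was above and every sh72 library below the controls for LCK (difference -0.769) and TCF7 (difference -2.0); both were among the genes chosen by their values, so the difference is a description and nothing is read from its call.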

How the results depend on the processing

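Treating the 6 LSD1 shRNA libraries as 1 group, which puts the difference between the shRNAs into the spread, lowered the genes passing on the mean from 8226 to 3581. The other NK and T cell genes passing fell from 56 to 24, those higher from 37 to 17 and those lower from 19 to 7. In that fit CD247 (0.517, adjusted p = 0.0524) and LCK (-0.171, adjusted p = 0.607) no longer passed on the mean, nor did 17 of the other named genes, listed above. With KLRC1, KLRC2 and KLRC3 added up, sh72 minus sh68 was -0.788, and -0.81 with KLRC4 and KLRK1. Both are opposite in sign to KLRC1 alone, which holds few of the pooled reads, so they are no second estimate for it. CD247 with sh68 passed with library size alone, a minimum of 1 CPM, the replicate block or without the first shSCR replicate (0.285 to 0.415).

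Other scalings, filters and tools left the counts within 1.5 times. With single libraries left out, 7152 to 8450 genes passed on the mean and 51 to 59 of the other NK and T cell genes. Same-numbered libraries had a residual r of 0.127 to 0.15 between shSCR and sh68, -0.0427 to 0.283 between shSCR and sh72 and -0.0946 to 0.147 between sh68 and sh72, so the numbers were not taken to pair all 9 libraries. With a replicate block 8631 and 57 passed. CCR7 with sh68 did not pass with DESeq2 (adjusted p = 0.132), TNFSF10 on the mean with DESeq2 (0.0674) or limma-voom (0.0558), nor ETS1 with sh72 with DESeq2 (0.0519), library size alone (0.0717) or only the groups compared (0.0565). IL2RG on the mean passed with library size alone (log2 fold change 0.0968, edgeR adjusted p = 0.0364). Of the values of the 10 genes, 696 were kept, 4 gained a call, 2 lost one and 2 turned. A small change of sign without a call counted as kept, as for KLRK1 in sh72 minus sh68 (-0.0785 to 0.113 with single libraries left out). The 2 that turned are the pooled counts set against KLRC1 alone. KLRD1 and CD5, with 7 to 50 reads a library, are the least precise.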
